A study of Homo sapiens with 12 samples.

Results

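The comparison described here set NT2/D1 cells without PRMT6 against control cells when both had received all-trans retinoic acid (ATRA). Its members were chosen by their genotype and treatment labels, which gave 6 of the 12 libraries of the study. The control group held 3 libraries of CRISPR/Cas9 control NT2/D1 cells, and the knockout group held 3 libraries of NT2/D1 cells with a CRISPR/Cas9 deletion of PRMT6. Both groups had been given 1 µM ATRA for 3 days. Messenger RNA was sequenced and counted per gene. The other 6 libraries, 3 of untreated control and 3 of untreated knockout cells, entered the model only for its estimate of spread and for the contrast between treatments. The labels name 1 knockout line. They do not say whether replicate libraries were grown separately, and p-values therefore measure only how these libraries vary, a spread that may be technical.

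NT2/D1 is a human embryonal carcinoma line, pluripotent when undifferentiated, that differentiates when given ATRA. ATRA binds retinoic acid receptors on DNA and switches on direct targets such as the retinoic acid degrading enzyme CYP26A1 and the HOX genes, which lie in clusters and are activated from the anterior toward the posterior end of each cluster. PRMT6 is an arginine methyltransferase that places asymmetric dimethylation on arginine 2 of histone H3, a mark that opposes methylation of the neighbouring lysine 4. It has also been linked to repression of CDKN1A, the gene of the cell cycle inhibitor p21.

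Total counts were 32.1, 37.2 and 38.4 M in the control libraries and 36, 35.4 and 38.2 M in the knockout libraries, each given here in the order of libraries 1 to 3. Levels are CPM, counts scaled to the effective library size, and where levels are listed without the group names the control libraries come first. A log2 difference is the fitted log2 fold change of knockout over control. A gene with 3 counts would stand at 0.0782 to 0.0935 CPM. All 9 markers fixed for embryonal carcinoma exceeded 1 CPM in each of the 6 libraries, with summed levels of 2240, 3750 and 2630 CPM in control and 1570, 2790 and 1550 CPM in knockout. The 8 immune and endothelial markers summed to 17.1 to 25.8 CPM in control and 6.17 to 16.8 CPM in knockout, and PECAM1 had no counts in any library. In bulk RNA, fewer cells of a type and less RNA per cell cannot be told apart.

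The libraries of a group were not equally alike. Knockout libraries 1 and 3 were nearly identical: the chi-square between their counts was 1.91 per gene, and of 11424 genes with at least 5 CPM none was 4-fold apart. Knockout library 2 differed from them by chi-squares of 118 and 122 per gene, with 121 and 122 genes 4-fold apart. Control library 2 differed from control libraries 1 and 3 by 227 and 314, with 342 and 462 genes 4-fold apart. By the same measure control library 1 was nearer to all 3 knockout libraries, at 174, 141 and 183, than to control library 2.

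Levels of direct ATRA targets varied widely within both groups. CYP26A1 stood at 256, 0.052 and 12.4 CPM in control against 12.7, 1020 and 11 CPM in knockout. HOXB1, an anterior HOX gene with a retinoic acid response element, stood at 72.8, 1.17 and 39.2 CPM against 19.7, 212 and 21.2 CPM. CRABP2, a retinoic acid carrier, stood at 4900, 924 and 3330 CPM against 1750, 4780 and 1760 CPM. Control library 2 was lowest and knockout library 2 was highest for CYP26A1 and HOXB1. POU5F1, the pluripotency factor OCT4, was highest in control library 2, at 147, 895 and 148 CPM in control against 305, 515 and 299 CPM in knockout. None of these 4 genes was called in the comparison (edgeR adjusted p = 0.548 for CYP26A1, 0.513 for HOXB1, 0.885 for CRABP2 and 0.945 for POU5F1).

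**Figure D1:**
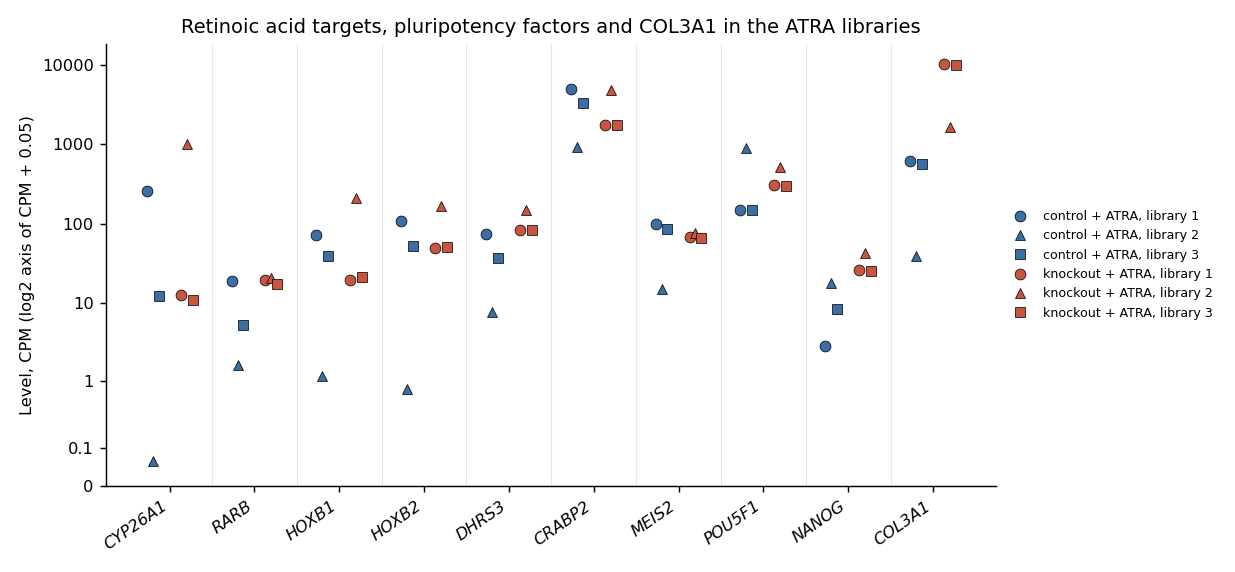
Levels of retinoic acid targets, the pluripotency factors POU5F1 and NANOG and the collagen gene COL3A1 in each of the 6 ATRA libraries, in CPM on a log2 axis; each point is 1 library. Control library 2 (blue triangle) is low for CYP26A1, HOXB1 and HOXB2 and high for POU5F1, and knockout library 2 (red triangle) is high for the first 3 and low for COL3A1 beside the other knockout libraries.

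GC content also moved with genotype. The rank correlation across genes of a library's level, relative to the mean of all libraries, with the GC content of the gene was -0.291, -0.402 and 0.0983 in control and 0.225, 0.357 and 0.29 in knockout. Genes are not independent replicates, and this correlation is a description. In the third of genes lowest in GC, 1.55% were called higher and 6.38% lower in the knockout, with a median log2 difference of -0.53. In the third highest in GC the shares were 4.26% and 4.4%, with a median of 0.13. The part that GC content, control library 2 or the near-identical pair had in each result was not tested, and some values without them are given below.

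Across 19130 genes tested with edgeR's quasi-likelihood test, 1437 (7.51%) were called at an adjusted p under 0.05. In the knockout 626 (3.27%) rose and 811 (4.24%) fell, and the fold was at least 2 for 1259 (6.58%). Knockout and control libraries did not overlap for 6623 genes (34.6%). Among the 626 genes called higher, the median log2 difference from the control mean was 1.43, 1.14 and 1.44 in knockout libraries 1, 2 and 3. For the 811 called lower the knockout libraries fell by medians of 1.23, 1.26 and 1.27 on the log2 scale. Summing knockout libraries 1 and 3 into 1 library, together with the near-identical untreated pair, left 71 calls (0.359% of 19777 tested), 49 higher and 22 lower, all of them among the 1437. The count was 241 without knockout library 1, 831 without knockout library 2, 219 without knockout library 3 and 632 without control library 2. Called here and below refers to edgeR unless another tool is named. A call that was lost on summing is given below with that adjusted p, or with the count of its list after summing. Across the 18 settings in which the comparison was run, 64 genes were called in every setting, 44 higher and 20 lower.

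**Figure D2:**
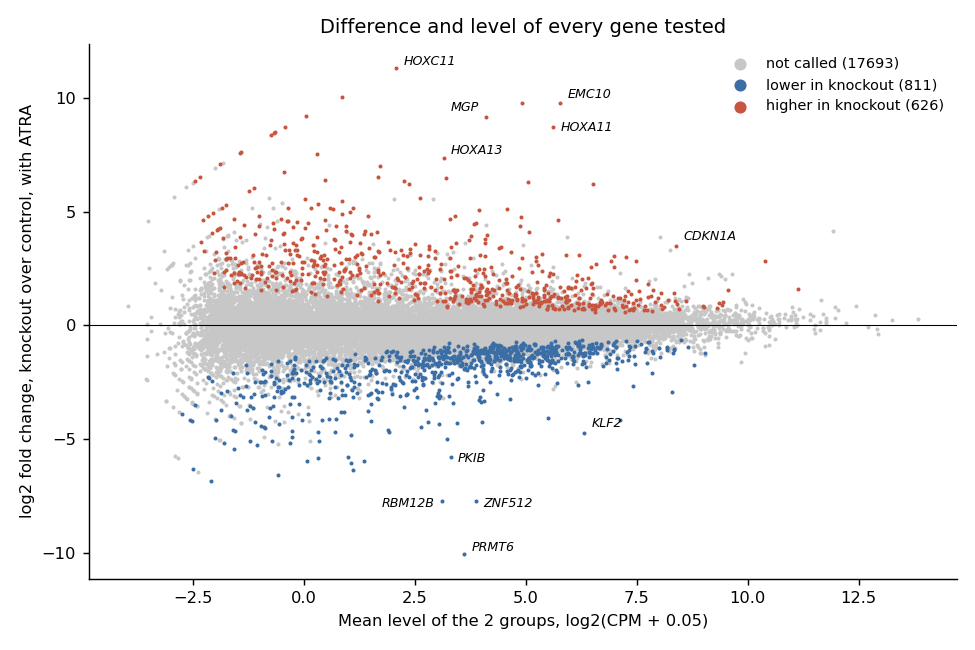
Fitted log2 fold change of knockout over control with ATRA (vertical) against the mean level of both groups, as log2 of CPM + 0.05 (horizontal); each point is 1 of the 19130 genes tested, with the 626 called higher in red and the 811 called lower in blue. The labelled genes lie far from 0, with PRMT6 lowest and HOXC11 highest; the fitted value of HOXC11 depends on the model's prior because it had no control counts.

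PRMT6, the deleted gene, was present in every control library and all but absent from every knockout library. It stood at 29.9, 15.9 and 26.8 CPM in control against 0, 0.0587 and 0 CPM in knockout. In counts these were 2619 in control and 2 in knockout, a ratio of 1250 (95% counting interval 347 to 10400, for counting error only; edgeR adjusted p = 0.00119, and 0.0208 with the pair summed). The groups were far apart, as their labels say. Among the other 9 protein arginine methyltransferases tested edgeR called none. Of all 10, PRMT6 included, DESeq2 called 3, and edgeR called 2 without knockout library 2. PRMT1, the main asymmetric arginine methyltransferase, had a log2 difference of -0.04 ± 0.20 SE (edgeR adjusted p = 0.914). The symmetric methyltransferase PRMT5 had -0.23 ± 0.39 and CARM1, which methylates other histone H3 arginines, 0.05 ± 0.19 (edgeR adjusted p = 0.739 and 0.896).

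The gene groups with the largest shares of calls among their tested members were the HOXC, HOXD and HOXA clusters and p53 targets, all higher in the knockout. The starts of HOXA11 and CDKN1A are shown because no other HOX gene and no other p53 target was as widely separated between the groups. Both are from RefSeq on GRCh38.p14, another build than that of the counts, and run from 250 bases before to 50 bases after the start of the gene, 5′ to 3′ on its own strand. Capitals mark GGGCGG or its reverse complement CCGCCC, the letters bound by SP1-type factors.
HOXA11: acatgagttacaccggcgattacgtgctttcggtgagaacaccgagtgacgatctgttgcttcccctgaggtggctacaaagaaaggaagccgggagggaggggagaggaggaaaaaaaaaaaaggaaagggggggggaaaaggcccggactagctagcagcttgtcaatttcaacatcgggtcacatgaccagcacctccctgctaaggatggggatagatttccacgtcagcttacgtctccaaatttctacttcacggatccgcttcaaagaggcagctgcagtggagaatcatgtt
CDKN1A: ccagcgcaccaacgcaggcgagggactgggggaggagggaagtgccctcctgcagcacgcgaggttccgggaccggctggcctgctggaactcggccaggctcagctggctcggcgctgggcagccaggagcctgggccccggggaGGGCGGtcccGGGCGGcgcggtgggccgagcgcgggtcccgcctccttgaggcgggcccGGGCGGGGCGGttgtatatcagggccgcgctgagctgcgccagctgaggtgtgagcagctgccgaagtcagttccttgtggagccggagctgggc
The HOXA11 window is chr7:27185183-27185482 on the minus strand, with 51.3% GC and 13 CG pairs. It held no GGGCGG, no TATAAA and no AGGTCA, the half-site letters of nuclear receptors, on either strand. The CDKN1A window is chr6:36678464-36678763 on the plus strand, with 74.3% GC and 29 CG pairs. It held GGGCGG 4 times, a pair of them overlapping, and neither TATAAA nor AGGTCA. Of 27305 such windows 44.6% held GGGCGG on either strand, 13.9% AGGTCA and 12% TATAAA. Among the 11645 windows of genes tested here the shares were 67.7%, 9.94% and 6.12%. The matches describe these letters only.

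Posterior members of the HOXA cluster were high in all 3 knockout libraries and close to 0 in all 3 control libraries. HOXA11, a homeobox gene of limb and urogenital patterning, stood at 0.584, 0.078 and 0.0519 CPM in control against 99.7, 96.5 and 98.1 CPM in knockout. The lowest knockout library was 165-fold above the highest control library. Its log2 fold change was 8.73 ± 0.67 SE (edgeR adjusted p = 0.000106, and 0.00348 with the pair summed). HOXA13, the most posterior gene of the cluster, stood at 0.215, 0.104 and 0 CPM in control against 16.6, 20.5 and 15.6 CPM in knockout, a log2 difference of 7.37 ± 0.68 SE (edgeR adjusted p = 0.000305). HOXA10 stood at 5.88, 0.104 and 1.3 CPM in control against 139, 264 and 141 CPM in knockout, a log2 difference of 6.24 ± 0.98 SE (edgeR adjusted p = 0.00571, and 0.0473 with the pair summed). For these 3 genes the knockout libraries agreed within 2-fold, in contrast to the control libraries of HOXA10.

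Further toward the anterior end the separation narrowed. HOXA9 stood at 1.91, 0 and 0.752 CPM in control against 17.8, 53.5 and 18.2 CPM in knockout (log2 difference 5.09 ± 1.00 SE, edgeR adjusted p = 0.0141, and 0.0817 with the pair summed). HOXA6 stood at 0.492, 0.052 and 0.259 CPM against 3.68, 7.63 and 3.2 CPM (4.18 ± 0.77 SE, edgeR adjusted p = 0.0106, and 0.0689 with the pair summed). HOXA7, which lies between them, was not called, at 9.72, 1.04 and 7.36 CPM in control and 14.5, 16 and 14.8 CPM in knockout. The anterior genes HOXA2 to HOXA5 were not called and their groups overlapped. HOXA3 shows their pattern: 70.8, 0.546 and 64.6 CPM in control and 59.7, 123 and 63.6 CPM in knockout, with control library 2 alone near 0. In all, 5 of 11 HOXA genes rose and none fell, 45.5% against 7.51% called over all genes tested. The median log2 difference of the cluster was 1.68, against -0.06 over all genes tested. The 5 calls held without each library in turn, and 3 of 11 were called with the pair summed.

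The called HOXD genes were again the posterior ones, HOXD9 to HOXD13. HOXD13 stood at 16.4, 17.3 and 12.6 CPM in control against 90.5, 214 and 87.5 CPM in knockout, 8.47-fold higher (edgeR adjusted p = 0.00321, and 0.0189 with the pair summed). HOXD11 stood at 1.51, 5.09 and 0.881 CPM against 26.8, 41.5 and 24.9 CPM, 12.4-fold higher (edgeR adjusted p = 0.00569, and 0.046 with the pair summed). HOXD10 was 17.3-fold, HOXD12 6.83-fold and HOXD9 4.49-fold higher (edgeR adjusted p = 0.00829, 0.0101 and 0.00625, and 0.0621, 0.0552 and 0.0641 with the pair summed). Control library 2 held the highest control value of HOXD10, at 8.78 CPM beside 0.984 and 1.22 CPM, whereas HOXA10 was lowest there. HOXD1, HOXD3, HOXD4 and HOXD8 were not called and had log2 differences of -1.09, 1.36, 1.24 and 1.17. In all, 5 of 9 HOXD genes rose and none fell, 55.6% against 7.51% called over all genes tested, with a median of 2.17.

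HOXC11 and HOXC10 had no counts in any control library. HOXC11, a posterior HOX gene, had 11, 3.79 and 10.3 CPM in knockout, from 881 counts in all. With 3 counts summed over the control libraries as the floor, it was at least 307-fold higher (edgeR adjusted p = 0.00119, and 0.0208 with the pair summed). HOXC10 held 28 counts in the knockout and was at least 9.75-fold higher (edgeR adjusted p = 0.0315, and 0.14 with the pair summed), and its call was also lost without control library 1 or 2 and without knockout library 1 or 3. HOXC6 stood at 0.4, 0.026 and 0.0259 CPM in control against 1.83, 4.87 and 2.4 CPM in knockout, 20.6-fold higher (edgeR adjusted p = 0.015, and 0.0818 with the pair summed). HOXC13 was 2.12-fold higher (edgeR adjusted p = 0.0357, and 0.138 with the pair summed), a call also lost with the GC trend removed (adjusted p = 0.056) and on leaving out any 1 of the 6 libraries. HOXC12, with 23 knockout counts and no control counts, was not called by edgeR (adjusted p = 0.0647) but was by DESeq2 (0.0256) and by edgeR without knockout library 2 (0.0221). HOXC4, highest in control library 1 at 43.4 CPM, was not called (edgeR adjusted p = 0.409). Of 9 HOXC genes listed 6 were tested, of which 4 rose (66.7%, against 7.51% called over all genes tested) and none fell. HOXC10, HOXC11 and HOXC12, with no control counts, could only come out higher. HOXC5, HOXC8 and HOXC9 did not pass the count filter, with 100, 9 and 0 counts in control and 11, 69 and 27 in knockout. The median log2 fold change of the tested HOXC genes was 5.22, or 3.14 with the genes that had no control counts set at their bounds.

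The HOXB cluster gave 1 call, and its libraries varied widely within groups. HOXB9, its most posterior gene but HOXB13, rose 13.7-fold, from 4.18, 0.13 and 1.04 CPM to 12.8, 46.4 and 13.7 CPM (edgeR adjusted p = 0.0285). That call was lost without control library 3 and without any knockout library, and with the pair summed (adjusted p = 0.113). HOXB8 shows how far knockout library 2 stood apart in this cluster: 3.85, 0.078 and 0.7 CPM in control and 3.71, 89.6 and 4.63 CPM in knockout. In all, 1 of 10 HOXB genes rose, 10% against 7.51% called over all genes tested. All 10 fitted values were above 0, with a median of 1.79, but those of HOXB1 to HOXB5 were below 0 without knockout library 2 (HOXB1 -0.88, HOXB4 -1.17). HOX clusters hold antisense genes, and the strand setting of the counting is not given in the sources used here, and reads from antisense partners could be counted in HOX genes. HOXA11-AS, chosen after its values were seen, stood at 0.123, 0.026 and 0.0519 CPM in control against 55.9, 67.1 and 56.7 CPM in knockout (edgeR adjusted p = 6.09e-06).

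**Figure D3:**
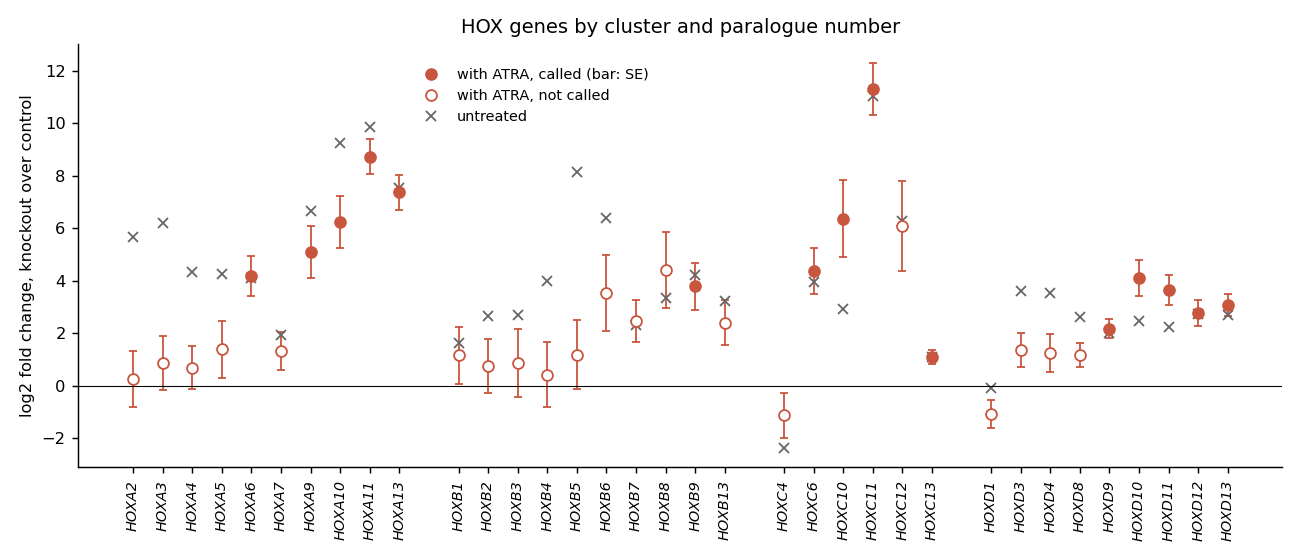
Fitted log2 fold change of knockout over control for tested HOX genes, by cluster and paralogue number, with ATRA (circles, filled where called, bars 1 SE) and untreated (crosses). The 15 called genes are filled, and the circles of HOXA2 to HOXA5 and HOXB1 to HOXB5 are open and lie below their untreated crosses. Filled circles of HOXA9, HOXA10 and HOXA11, among others, also lie below their crosses, and edgeR called no difference between treatments. Values of genes with no control counts, such as HOXC11, depend on the model's prior.

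Targets of p53, the stress-activated transcription factor that halts the cell cycle and starts cell death, formed the other group with many calls. Of 24 tested 13 rose and none fell, 54.2% against 7.51% called over all genes tested. The median log2 fold change was 1.15, with 22 of 24 values above 0, and in 17 of 24 every knockout library was above every control library, against 16.7% over all genes tested. CDKN1A, which encodes p21, stood at 48.5, 67.8 and 45.4 CPM in control against 677, 470 and 690 CPM in knockout. It was 11.4-fold higher with no overlap (edgeR adjusted p = 0.000266, and 0.00483 with the pair summed). PHLDA3, which restrains AKT signalling, stood at 38.2, 31 and 38.5 CPM against 202, 237 and 212 CPM. It was 6.04-fold higher (edgeR adjusted p = 0.000356, and 0.00635 with the pair summed). Control library 2, which stood apart for the retinoic acid targets, lay near the other control libraries for both genes. For PHLDA3, knockout library 2 lay near the other knockout libraries.

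Other called p53 targets are named after their values were seen and follow their roles. Of the death receptor and mitochondrial death genes, TNFRSF10B, the receptor of the ligand TRAIL, stood at 61.9, 58.4 and 91.4 CPM in control against 286, 288 and 281 CPM in knockout. It was 4.04-fold higher (edgeR adjusted p = 0.00119, and 0.0208 with the pair summed). BAX, which permeabilises mitochondria, rose 2.2-fold from 107, 124 and 103 CPM to 238, 255 and 240 CPM, and BBC3, which encodes PUMA, 2.46-fold (edgeR adjusted p = 0.00961 and 0.00986, and 0.0894 and 0.0927 with the pair summed). Of the DNA repair and stress genes, DDB2, a damage sensor of nucleotide excision repair, stood at 16.1, 12.7 and 18.2 CPM against 82.5, 66.7 and 82.5 CPM. It was 4.93-fold higher (edgeR adjusted p = 0.00119, and 0.0208 with the pair summed). GDF15, a secreted stress factor, was 8.26-fold higher and SESN2, a stress-induced inhibitor of mTORC1, 2.07-fold (edgeR adjusted p = 0.0113 and 0.00961, and 0.0817 and 0.0917 with the pair summed). ZMAT3, AEN, FDXR and PLK3 were between 2.23-fold and 3.48-fold higher.

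Not every p53 target was called. MDM2, the p53 target that degrades p53, was not called, at 55.2, 75.1 and 50.6 CPM in control and 83.8, 65 and 77.1 CPM in knockout (1.25-fold, edgeR adjusted p = 0.365). Members called without each library in turn numbered 8 to 14, with the lowest count without knockout library 3. With the pair summed 4 of 24 were called, namely CDKN1A, PHLDA3, DDB2 and TNFRSF10B, and with the GC trend of each library removed 18 were.

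Mitotic genes leaned the other way. Of 24 mitotic genes 5 fell and none rose, 20.8% against 7.51% called over all genes tested. The median log2 difference of the list was -0.98, with 23 of 24 values below 0. BUB1, a kinase of the spindle checkpoint, stood at 42.6, 113 and 34.4 CPM in control against 19.2, 15.2 and 20.1 CPM in knockout, 3.48-fold lower (edgeR adjusted p = 0.0258, and 0.149 with the pair summed). CENPA, the histone of centromeres, stood at 44.1, 48.2 and 39.8 CPM against 18.1, 25.9 and 19.1 CPM, 2.09-fold lower (edgeR adjusted p = 0.0207, and 0.162 with the pair summed). The groups did not overlap for either gene, and BUB1 was highest in control library 2. Without control library 2 none of the 24 was called, without knockout library 1, 2 or 3 the counts were 0, 1 and 0, and without control library 1 or 3 they were 3 and 11. With the GC trend removed 2 of the 24 were called, BUB1 and CENPA, and with the pair summed none was. Both genes lie on chromosome 2 between ACP1 and POLR2D, a stretch described below where 18.8% of tested genes were called lower. The part of that stretch in their values was not tested. CCNB1 and PLK1, which drive entry into mitosis, had log2 differences of -0.10 and -0.12 and were not called. Of 27 DNA replication genes 2 fell, 7.41% against 7.51% called over all genes tested. Their median log2 difference was -0.10, with 17 of 27 values below 0. The 2 were MCM6, 2.29-fold lower, and RFC3, 2.12-fold lower (edgeR adjusted p = 0.0457 and 0.0248, and 0.212 and 0.168 with the pair summed), and neither was called without control library 2 or any knockout library, or with the GC trend removed (adjusted p = 0.0765 and 0.168). Of 8 CDK inhibitors, CDKN1C, which encodes p57, fell 2.01-fold beside the rise of CDKN1A (edgeR adjusted p = 0.0227, and 0.179 with the pair summed), a call also lost without control library 1 and without knockout library 1 or 3. The share called among CDK inhibitors was 25%, against 7.51% over all genes tested.

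**Figure D4:**
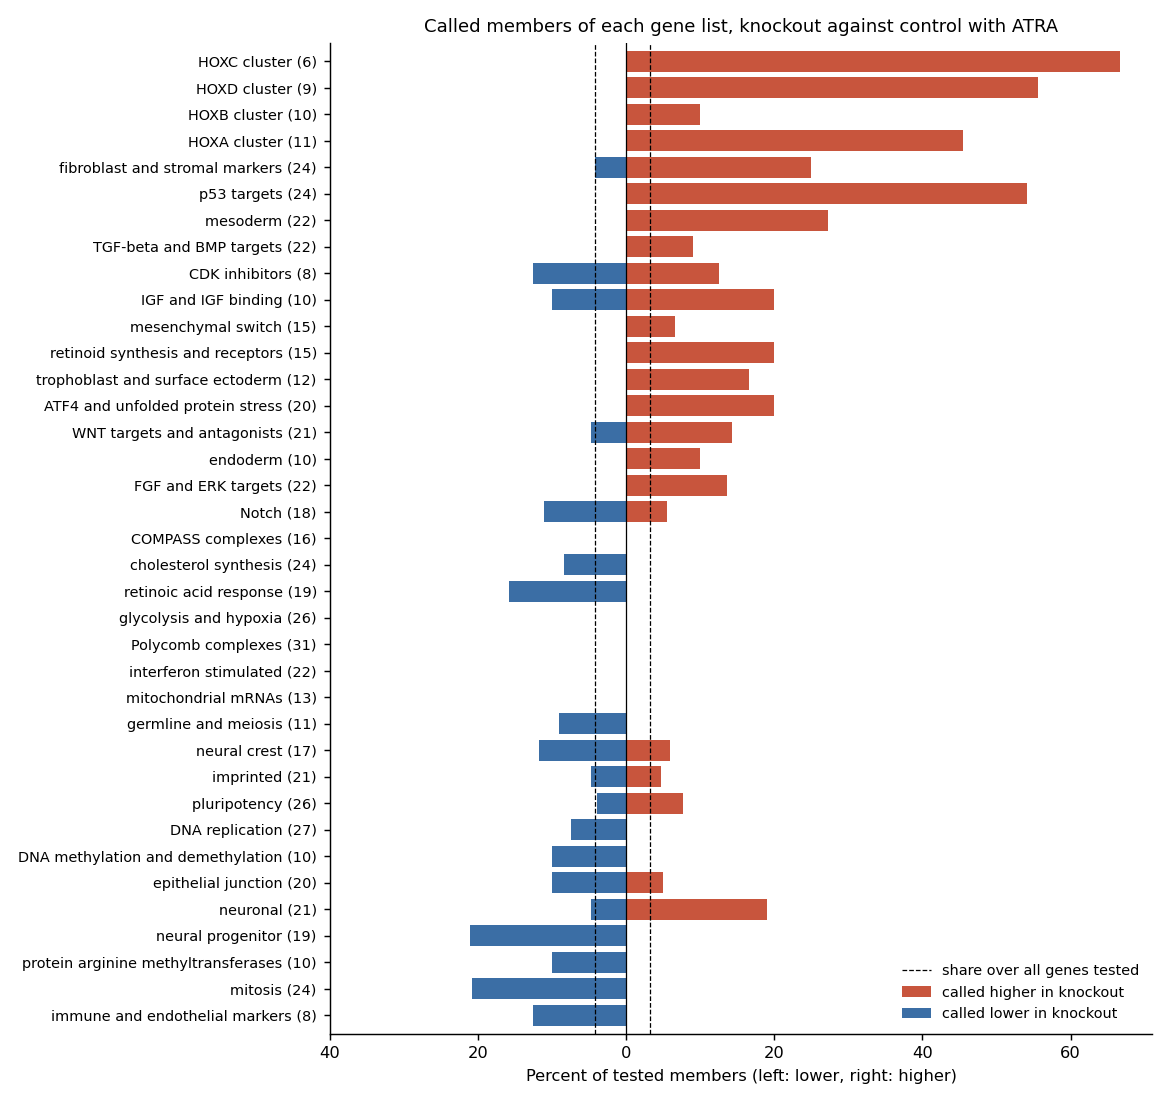
Percent of the tested members of each of the 37 gene lists (number tested in brackets) that were called higher (red, right) or lower (blue, left) in the knockout with ATRA; dashed lines mark the shares over all genes tested, 3.27% higher and 4.24% lower. The HOXC, HOXD and HOXA clusters and p53 targets extend farthest to the right, and neural progenitor and mitosis lists farthest to the left.

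The largest increases outside the HOX genes fell into genes high in all 3 knockout libraries and genes low in knockout library 2. EMC10, a subunit of a complex that inserts proteins into the endoplasmic reticulum membrane, was of the first kind. It stood at 0.215, 0.13 and 0.0259 CPM in control against 110, 108 and 109 CPM in knockout, a log2 difference of 9.79 ± 1.48 SE (edgeR adjusted p = 0.00491, and 0.0392 with the pair summed). HAND2, a transcription factor of developing heart and limb, stood at 1.88, 0.13 and 0.467 CPM against 85.3, 18.2 and 90.8 CPM, 79.8-fold higher (edgeR adjusted p = 0.00883, and 0.0689 with the pair summed). Every knockout library of HAND2 was above every control library, although library 2 lay below the other knockout libraries.

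The matrix and stromal genes among these largest increases were of the second kind. MGP, which encodes the calcification inhibitor matrix Gla protein, stood at 0.0615, 0.052 and 0.0519 CPM in control against 51, 0.117 and 51 CPM in knockout (log2 difference 9.19 ± 2.17 SE, edgeR adjusted p = 0.028). DCN, which encodes the small matrix proteoglycan decorin, had 0.246, 0.182 and 0.181 CPM in control against 27.9, 0.264 and 26.4 CPM in knockout (6.47 ± 1.64 SE, edgeR adjusted p = 0.0356). Knockout library 2 was at the control level for both, and the calls were lost with the pair summed (adjusted p = 0.129 and 0.157). They were also lost when any 1 control library, or knockout library 1 or 3, was left out. FAP, a surface protease of activated fibroblasts, was 91.8-fold higher (edgeR adjusted p = 0.00785, and 0.0577 with the pair summed). It stood at 0.0923, 0.052 and 0.0519 CPM in control, from 7 counts in all, against 9.16, 0.822 and 8.62 CPM in knockout. IGF1, a growth factor, was 81.7-fold higher (edgeR adjusted p = 0.0118, and 0.08 with the pair summed). It stood at 0.185, 0.052 and 0.104 CPM in control, from 12 counts in all, against 14.4, 1.32 and 12.3 CPM in knockout.

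Of 24 fibroblast and stromal genes 6 rose and 1 fell, 29.2% against 7.51% called over all genes tested. The median log2 difference of the list was 1.61, and none was called with the pair summed. The count of calls was 9 without knockout library 2, 3 without control library 2, 2 without control library 1 and 1 without knockout library 1 or 3. The 10 fibroblast markers fixed for the check of cell types summed to 1080, 270 and 1520 CPM in control and 12400, 2260 and 12300 CPM in knockout, and none of the 10 was at 0 in any of the 6 libraries. COL3A1, a fibrillar collagen, made up most of that sum in the knockout and was not called (log2 difference 4.18 ± 1.35 SE, edgeR adjusted p = 0.0737). PDGFRA, a receptor of fibroblasts and mesoderm, ran the other way, from 14.9, 5.82 and 15.4 CPM in control to 3.97, 4.99 and 3.72 CPM in knockout, and was not called. S100A4, also named a fibroblast marker, fell 6.21-fold, from 80.3, 166 and 128 CPM to 25.2, 9.77 and 25.2 CPM (edgeR adjusted p = 0.0143, and 0.0987 with the pair summed), and was not called without knockout library 1 or 3. The part of other cells in these values was not tested.

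**Figure D5:**
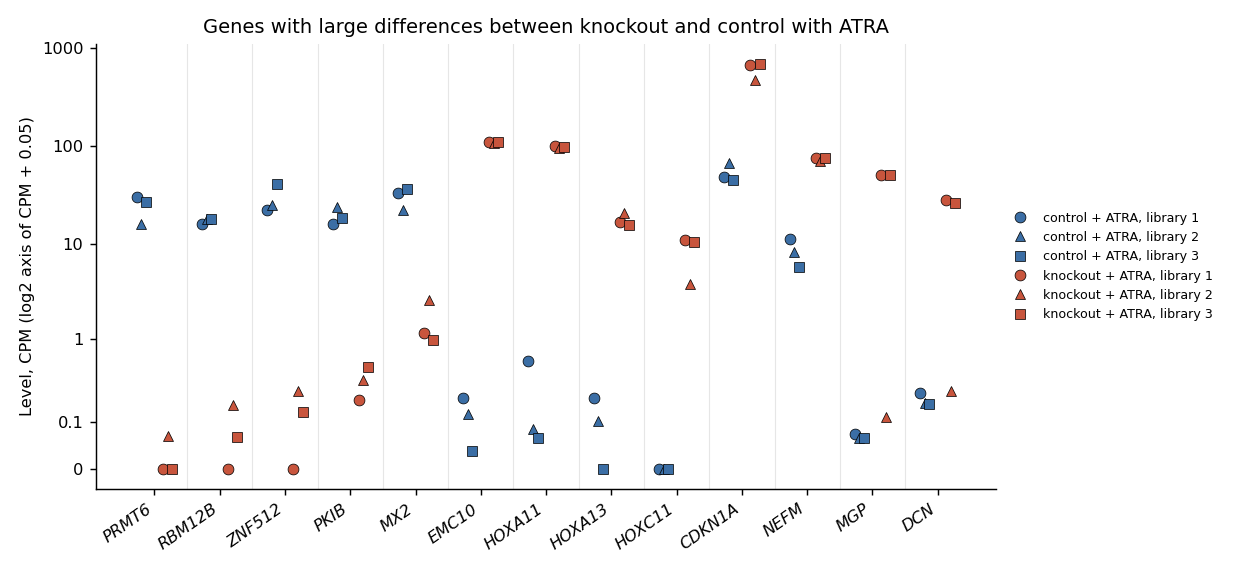
Levels of 13 genes with large differences in each of the 6 ATRA libraries, in CPM on a log2 axis after adding 0.05; each point is 1 library. Knockout points (red) lie together for EMC10, HOXA11, CDKN1A and NEFM, whereas knockout library 2 (red triangle) lies with the control points for MGP and DCN.

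Several mesoderm regulators rose. Of 22 tested 6 rose and none fell, 27.3% against 7.51% called over all genes tested, with a median log2 difference of 0.91. Besides HAND2 these included TBX2, EOMES, MIXL1 and OSR1, from 3.99-fold to 25-fold higher. MIXL1 and OSR1 were not called with the GC trend removed. TBX2, a T-box repressor, stood at 7.78, 0.286 and 4.23 CPM in control against 112, 74 and 121 CPM in knockout (edgeR adjusted p = 0.0131, and 0.09 with the pair summed). With the pair summed 1 of the 22 was called. Without 1 library the count of calls was 2 to 6, with the lowest without knockout library 3. In the endoderm list 1 of 10 rose: GATA4, at 1.35, 0.702 and 1.66 CPM in control and 40.8, 4.08 and 39.3 CPM in knockout, was 22.6-fold higher (edgeR adjusted p = 0.0076, and 0.0641 with the pair summed). Like MGP and DCN, GATA4 was lowest among knockout libraries in library 2. The share called in the endoderm list was 10%, against 7.51% over all genes tested. Of 12 trophoblast and surface ectoderm genes 2 rose, IGFBP3 8.3-fold and TP63 4.06-fold (edgeR adjusted p = 0.032 and 0.041, and 0.157 and 0.177 with the pair summed), and neither was called without knockout library 1 or 3. TP63, at 0.738, 0.13 and 0.207 CPM in control and 1.51, 1.64 and 1.18 CPM in knockout, also lost its call without control library 2 or 3 or knockout library 2.

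Neural genes changed in opposite directions. NEFM and NEFL, subunits of neurofilaments, rose in every knockout library. NEFM stood at 11.2, 8.19 and 5.76 CPM in control against 75.9, 70.9 and 76.2 CPM in knockout, and NEFL at 26.1, 33.3 and 30.7 CPM against 124, 122 and 126 CPM. The increases were 8.89-fold and 4.12-fold (edgeR adjusted p = 0.000266 and 0.000622, and 0.0052 and 0.0181 with the pair summed). DCX, a microtubule protein of migrating neurons and a member of the same list, stood at 9.51, 16.9 and 4.61 CPM in control against 0.899, 1.47 and 1.18 CPM in knockout, 8.73-fold lower (edgeR adjusted p = 0.0049, and 0.0641 with the pair summed). SNAP25, a protein of synaptic vesicle fusion, rose 5.23-fold (edgeR adjusted p = 0.0094, and 0.0807 with the pair summed). In all, 4 of 21 neuronal genes rose and 1 fell, 23.8% against 7.51% called over all genes tested, with a median of -0.43. The 6 neuron markers fixed for the check of cell types summed to 392, 399 and 568 CPM in control and 311, 361 and 320 CPM in knockout.

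Of 19 neural progenitor regulators 4 fell and none rose, 21.1% against 7.51% called over all genes tested, with a median of -0.43. The count of calls was 2 without knockout library 1 or 2, 1 without knockout library 3 and 0 with the pair summed. LHX2, a forebrain and eye field factor, stood at 21.2, 26.6 and 23.7 CPM in control against 8.64, 6.75 and 8.15 CPM in knockout, 3.04-fold lower (edgeR adjusted p = 0.00361, and 0.0554 with the pair summed). SOX21 stood at 1.02, 13.9 and 6.64 CPM against 0.174, 0.47 and 0.193 CPM, 25.5-fold lower (edgeR adjusted p = 0.00873, and 0.0894 with the pair summed), a call also lost without knockout library 3. PAX3, a regulator of dorsal neural tube and neural crest, stood at 12.9, 21.6 and 19.1 CPM against 0.522, 0.734 and 0.413 CPM, 32-fold lower (edgeR adjusted p = 0.0347). The groups did not overlap for any of these 3 genes. The call of PAX3 was lost with the pair summed (adjusted p = 0.194), without control library 1 or 2 and without any knockout library. SOX10, a neural crest regulator, had 222 counts in control and 3 in knockout, a ratio of 70.8 (95% counting interval 23.9 to 346; edgeR adjusted p = 0.00791, and 0.0528 with the pair summed). TWIST1, shared by neural crest and mesenchyme, rose 3.19-fold (edgeR adjusted p = 0.00746, and 0.0775 with the pair summed).

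Genes that make, carry and sense retinoic acid showed a few calls. Of 19 response genes none rose and 3 fell, 15.8% against 7.51% called over all genes tested, with a median log2 difference of 0.07. CRABP1, a cytoplasmic carrier of retinoic acid, stood at 209, 237 and 365 CPM in control against 85.3, 78.2 and 84.9 CPM in knockout, 3.27-fold lower (edgeR adjusted p = 0.0043, and 0.063 with the pair summed). Its libraries did not follow the pattern of CYP26A1. STRA6, a receptor that takes up retinol, was 2.61-fold lower and the receptor tyrosine kinase gene RET 2.63-fold lower (edgeR adjusted p = 0.0343 and 0.0363, and 0.209 and 0.194 with the pair summed). Without knockout library 1 or 3, 1 of the 19 was called. Of 15 genes for synthesis and receptors 3 rose and none fell, 20% against the same 7.51%. RDH10, which makes retinaldehyde, stood at 11.9, 2.91 and 10.4 CPM against 56.1, 35.2 and 55.9 CPM, 5.83-fold higher (edgeR adjusted p = 0.0159, and 0.105 with the pair summed). ALDH1A2, which turns retinaldehyde into retinoic acid, was 9.34-fold higher and the receptor gene RXRB 2.07-fold (edgeR adjusted p = 0.0176 and 0.0331, and 0.12 and 0.186 with the pair summed). For RDH10, ALDH1A2 and RXRB together the calls fell to 0 without knockout library 1 or 3 and to 1 without control library 2, and RXRB was not called with the GC trend removed (adjusted p = 0.0587).

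Of 26 pluripotency genes 2 rose and 1 fell, 11.5% against 7.51% over all genes tested, with a median of -0.09. GDF3, a ligand of the TGF-beta family expressed in pluripotent cells, stood at 13.5, 45.2 and 18.4 CPM in control against 118, 225 and 114 CPM in knockout, 5.92-fold higher (edgeR adjusted p = 0.0139, and 0.0775 with the pair summed). LEFTY1, an inhibitor of Nodal, stood at 0.923, 0.13 and 0.519 CPM against 3.97, 13.2 and 3.06 CPM, 12.9-fold higher (edgeR adjusted p = 0.0132, and 0.0649 with the pair summed). SOX2 fell 3.89-fold, from 44.6, 137 and 60.7 CPM to 18.3, 26.6 and 17.4 CPM (edgeR adjusted p = 0.0172, and 0.13 with the pair summed). For all 3 genes the groups did not overlap. Without control library 2, whose POU5F1 was highest, 7 of 26 were called.

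Chromatin regulators related to PRMT6 gave few calls. Of 31 Polycomb genes edgeR called none, with 13 at an unadjusted p under 0.05, 4 called by DESeq2 and 0 by limma-voom. EZH2, the H3 lysine 27 methyltransferase, stood at 59.7, 65.1 and 66.2 CPM in control against 47.6, 58.6 and 44.2 CPM in knockout (log2 difference -0.34 ± 0.23 SE, edgeR adjusted p = 0.361). Of 16 genes of the COMPASS complexes, which methylate H3 lysine 4, edgeR called none, with 2 at an unadjusted p under 0.05 and none called by DESeq2 or limma-voom. Of 10 DNA methylation and demethylation genes 1 fell: TET1, which oxidises methylcytosine, was 4.61-fold lower, from 37.4, 75.3 and 14.2 CPM to 8.49, 9.51 and 9.56 CPM (edgeR adjusted p = 0.0183). That call was lost without control library 2 (adjusted p = 0.0509), without knockout library 1 or 3, and with the pair summed (adjusted p = 0.136). All 10 fitted values of this list were below 0, with a median of -0.32. The share called in it was 10%, against 7.51% over all genes tested.

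Signalling and stress lists held calls in both directions. The share called was 19% for WNT, 13.6% for FGF and ERK, 16.7% for Notch and 30% for insulin-like growth factor genes. It was 9.09% for TGF-beta and BMP, 20% for ATF4 and 8.33% for cholesterol genes, against 7.51% over all genes tested. With the pair summed, none was called among the WNT, FGF and ERK, Notch, TGF-beta and BMP, ATF4, insulin-like growth factor and cholesterol lists described next. Of 21 WNT targets and antagonists 3 rose, among them DKK1, a secreted WNT antagonist, 14-fold, and 1 fell (edgeR adjusted p = 0.00491 for DKK1, and 0.0522 with the pair summed), and 1 of the 21 was called without knockout library 1 or 3. Of 22 FGF and ERK targets 3 rose, SPRY4, DUSP4 and EPHA2, between 2.44-fold and 3.19-fold, and none was called without control library 1 or 2 or any knockout library, whereas 5 were with the GC trend removed. Of 18 Notch genes 1 rose, the ligand gene JAG1 2.82-fold, and 2 fell, the fringe glycosyltransferase genes LFNG 2.55-fold and MFNG 6.58-fold (edgeR adjusted p = 0.0392, 0.0273 and 0.019, and 0.193, 0.181 and 0.125 with the pair summed), and none was called without knockout library 1 or 3. Of 22 TGF-beta and BMP targets 2 rose, and of 20 genes of the ATF4 and unfolded protein response 4 rose, with 1 of these 20 called without control library 1 or any knockout library. Of 10 genes of insulin-like growth factors and their binding proteins, IGF1 and IGFBP3 rose and IGFBP4 fell 2.11-fold (edgeR adjusted p = 0.0257, and 0.161 with the pair summed), the last not called without control library 1 or 3 or any knockout library. Of 24 cholesterol synthesis genes 2 fell, HMGCS1 2.68-fold (edgeR adjusted p = 0.0457, and 0.164 with the pair summed), and neither was called without control library 2 or any knockout library, or with the GC trend removed (adjusted p = 0.0755 for HMGCS1). None of 22 interferon-stimulated, 26 glycolysis and hypoxia or 13 mitochondrially encoded genes was called by edgeR, with 4, 2 and 1 at an unadjusted p under 0.05. DESeq2 called 4, 1 and 0 of them and limma-voom none. In the remaining lists 1 of 20 epithelial junction genes rose and 2 fell, 1 of 15 genes of the mesenchymal switch rose, 1 of 21 imprinted genes rose and 1 fell, 1 of 11 germline genes fell and 1 of 8 immune and endothelial genes fell. In that order the shares called were 15%, 6.67%, 9.52%, 9.09% and 12.5%, against 7.51% over all genes tested. None of these calls held with the pair summed.

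The largest decreases after PRMT6 were RBM12B and ZNF512, close to 0 in every knockout library. RBM12B, which encodes an RNA-binding protein, stood at 15.8, 17.8 and 17.7 CPM in control against 0, 0.176 and 0.0551 CPM in knockout (log2 difference -7.74 ± 0.64 SE, edgeR adjusted p = 0.000356). ZNF512, a zinc finger gene, stood at 21.9, 24.9 and 40.5 CPM against 0, 0.264 and 0.138 CPM (-7.73 ± 0.71 SE, edgeR adjusted p = 0.000305). Both held with the pair summed (adjusted p = 0.00483 for each). PKIB, an inhibitor of protein kinase A, stood at 15.9, 23.8 and 18.3 CPM against 0.203, 0.352 and 0.496 CPM, 54.5-fold lower (edgeR adjusted p = 0.00606, and 0.0689 with the pair summed). GDPD2, a phosphodiesterase gene, stood at 5.41, 17.6 and 12.3 CPM against 0.696, 0.293 and 0.578 CPM, 22.4-fold lower (edgeR adjusted p = 0.00119, and 0.021 with the pair summed). These control libraries agreed within 4-fold, control library 2 included.

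Among the other large decreases, KLF2, a transcription factor known from endothelium and naive pluripotency, stood at 101, 136 and 221 CPM in control against 6.06, 3.55 and 7.8 CPM in knockout. It was 26.3-fold lower (edgeR adjusted p = 0.0406, and 0.199 with the pair summed), a call lost on leaving out any 1 of the 6 libraries although no library overlapped. LPAR5, a receptor of lysophosphatidic acid, was 24.3-fold and EXOC3L1 19.9-fold lower (edgeR adjusted p = 0.00829 and 0.0172, and 0.0742 and 0.118 with the pair summed), and EXOC3L1 lost its call when any 1 knockout library was left out. MX2, an interferon-induced antiviral gene outside the list and chosen after its values were seen, stood at 33.1, 22.3 and 36.6 CPM against 1.16, 2.61 and 0.992 CPM. It was 19.3-fold lower (edgeR adjusted p = 0.000568, and 0.0181 with the pair summed). Among 11736 genes of at least 5 CPM in a group, 42 (0.358%) had every knockout library at least 4-fold above every control library and 24 (0.204%) at least 4-fold below.

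Genes called lower were unevenly spread over chromosomes. Of 15124 tested genes placed by symbol, those on chromosomes 2 and 3 made up 12.5%, but 29.1% of those called lower (213 of 733). On chromosome 2 most of them lay between ACP1 and POLR2D, where 103 of 548 tested genes were lower (18.8%) and 5 higher, with 445 fitted values below 0 and a median log2 difference of -0.67. On the rest of the chromosome 5.66% were lower, with a median of -0.20. On chromosome 3, between TRNT1 and ARL6IP5, 61 of 419 were lower (14.6%) and 4 higher, with a median of -0.56, against 4.94% and -0.23 on the rest. The medians were alike in knockout libraries 1, 2 and 3: -0.68, -0.58 and -0.72 in the first stretch and -0.54, -0.49 and -0.54 in the second, over genes of at least 5 CPM. With the GC trend removed the medians were -0.53 and -0.51. Both stretches were bounded after their values were seen and carry no test.

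The untreated cells share no library with this comparison, but they include the same knockout line and share the model's estimate of spread. Set beside them, the ATRA calls ran in the same direction. Of the 1437 genes 1054 (73.3%) were also among the 6676 called in untreated cells (34.9% of genes tested), of which they were 15.8%. All 1054 had the same direction, 461 higher and 593 lower, and 383 were called with ATRA only. The difference between the genotype effects with and without ATRA was itself tested, and edgeR called no gene (1868 at an unadjusted p under 0.05, 9.76%), limma-voom none and DESeq2 12. The 383 are therefore not shown to differ between treatments. EMC10 had 1 of the smallest interaction p-values: its log2 fold change was 9.79 with ATRA and 2.11 untreated, a difference of 7.68 ± 1.66 SE (edgeR adjusted p = 0.509). Untreated, it stood at 0.16, 45.9 and 26.4 CPM in control against 97.5, 109 and 107 CPM in knockout, so that 1 untreated control library was as low as the ATRA controls and the other 2 were not. PRRX2, a homeobox gene of mesenchyme, was 3.2-fold lower with ATRA, at 118, 132 and 103 CPM in control and 39.6, 31.3 and 39.7 CPM in knockout (edgeR adjusted p = 0.00148), and had a log2 difference of 0 untreated. INPP5D, a phosphoinositide phosphatase, was 7.7-fold higher with ATRA and had a log2 difference of 1.27 untreated (edgeR adjusted p = 0.509 for the interaction of either gene). CLDN12, RNF139 and BTF3L4, also named for the interaction, differed less with ATRA than untreated. Their log2 differences were -1.19, -0.56 and -0.31 with ATRA and -2.66, -2.22 and -1.68 untreated (edgeR adjusted p = 0.509 for each interaction).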

How the data were processed

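Raw counts of 12 libraries were deposited as 1 table, which the authors made with bcl2fastq, TopHat2, Subread and featureCounts on hg19 and GRCh37, per the submitters' processing notes, which also name DESeq2. Their versions, the annotation and the strand setting were not given in the sources used here. A gene length column, another value deposited by the authors, entered no result.

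From the counts, genes were kept with filterByExpr (minimum count 10 over the 4 groups), scaled by TMM, and fitted in edgeR 4.0.16 (R 4.3.3) by quasi-likelihood with 1 coefficient per group over all 12 libraries. The biological coefficient of variation was 0.367. P-values from the F-test were adjusted by Benjamini-Hochberg over 19130 genes and called under 0.05. Fits were tried on simulated counts with every library drawn independently. That setting holds no near-identical libraries and does not show how the fits behave with them. Alternatives were RLE scaling, DESeq2 1.42.0, limma-voom (limma 3.58.1), no filter or over 1 CPM in 3 libraries, ATRA libraries only, a replicate block, a fold of at least 2, the near-identical libraries summed, the GC trend removed, thinning, control and knockout library 2 left out, and each library left out in turn.

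The rule named PRMT6, the 10 largest increases and 10 largest decreases (called, at least 5 CPM in a group, no overlap, no clone-based, antisense, small RNA or pseudogene symbol), the 2 called members of smallest adjusted p of each of 37 lists, all tested HOX genes, and the 6 smallest interaction p-values under the same level and symbol limits. A few genes under the rule are not reported here. Other genes were named after their values were seen. Members and lists were chosen with earlier results of these data known. Counts of list members under alternatives, and the count of genes separated in every library, were added after seeing the data. The chi-square used genes with at least 20 counts in a pair. GC content came from GENCODE v44 transcripts, another build, for 33265 of 56638 symbols and 97.8% of genes of at least 5 CPM. Chromosomes came from RefSeq by symbol.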

Additional observations from a re-analysis of the deposited data

How the results depend on the processing

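The 1437 calls became 2964 with DESeq2 and 2317 with no filter, which tests 36681 genes. They became 768 with the ATRA libraries only and 71 with the near-identical libraries summed, both fits with fewer libraries, and 584 with control and knockout library 2 left out. With 1 library left out they ran from 219 to 2077. Of the calls 43.6% were higher in the knockout. That share was 69% with the libraries summed, 58.6% to 67.6% without a knockout library, and 31.6% to 44.5% without a control library. RLE scaling, limma-voom, the filter over 1 CPM, GC removal, thinning and the 2-fold limit gave 1015 to 1425 calls. The replicate block left 761 calls. Same-numbered control and knockout libraries deviated from their group means with correlations of -0.1, -0.172 and -0.11 over 11424 genes. Because knockout libraries 1 and 3 were nearly identical, these values cannot tell whether the numbers pair the libraries. The interaction gave 12 calls with DESeq2, 8 with no filter and 0 to 2 with 1 library left out (2 without control library 2), otherwise 0. Of 104 named genes 13 changed sign under at least 1 alternative, none of them called in the comparison and none called in the opposite direction, such as CYP26A1 (1.96, and -3.5 with control and knockout library 2 left out) and HOXB1 (1.16 and -1.45). Calls were lost for 57 with the libraries summed, 35 to 37 without knockout library 1 or 3, 24 without control library 2, 25 with the ATRA libraries only, 16 with limma-voom and 10 with the GC trend removed. Some of these fits hold fewer libraries or more genes, and the cause of the changes was not tested. At these depths 3 counts correspond to 0.0782 to 0.0935 CPM, and lower levels rest on fewer counts.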

Other observations

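Genes outside the lists and the naming rule also separated the groups in every library; they were chosen after their values were seen. EVX1, a homeobox gene beside the posterior end of the HOXA cluster, stood at 1.38, 1.85 and 2.93 CPM in control against 21.8, 51.9 and 24.9 CPM in knockout, 15.9-fold higher (edgeR adjusted p = 0.00119, and 0.011 with the near-identical libraries summed). The long noncoding RNA gene HOTTIP, at the same end of the cluster, held at most 0.052 CPM in control and stood at 2.03, 3.82 and 2.04 CPM in knockout. HOTAIR, in the HOXC cluster, had no counts in control and stood at 4.49, 2.55 and 3.42 CPM in knockout (edgeR adjusted p = 0.000989, and 0.0189 summed). PRAC1, next to HOXB13, stood at 0.246, 0.104 and 0.0519 CPM against 12.4, 3.58 and 14.1 CPM (edgeR adjusted p = 0.00119, and 0.0189 summed). As for the HOX genes, overlap on the opposite strand may add to these counts.

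GPX3, a secreted glutathione peroxidase, stood at 34.3, 35 and 31.5 CPM in control against 189, 437 and 196 CPM in knockout, 8.16-fold higher (edgeR adjusted p = 0.00119, and 0.0116 summed). DIO3, which inactivates thyroid hormone, was 20.7-fold higher and DRAM1, a lysosomal gene induced by p53, 5.55-fold (edgeR adjusted p = 0.0131 and 0.00295, and 0.0445 and 0.0392 summed). Genes lower in every knockout library included CKB, brain creatine kinase, from 262, 488 and 361 CPM to 82.8, 91.8 and 83.4 CPM, and NRXN2, a synaptic adhesion gene, from 37.4, 52.8 and 51.1 CPM to 10.4, 7.75 and 11.5 CPM (edgeR adjusted p = 0.00171 and 0.00119, and 0.0393 and 0.0208 summed). TDRD12, a germline piRNA pathway gene, fell from 74.9, 88.6 and 74.4 CPM to 27.9, 26.4 and 25.2 CPM (edgeR adjusted p = 0.00119, and 0.0392 summed). LGALS1, which encodes galectin-1, stood at 189, 376 and 228 CPM against 19.4, 5.49 and 19.2 CPM, 18-fold lower (edgeR adjusted p = 0.00959), but was no longer called with the libraries summed (adjusted p = 0.08).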
